A study of Mus musculus with 6 samples.

Results

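The miR-200 family and the miR-183 cluster were followed as 8 mature miRNAs in mouse serum: miR-200a-3p (MIMAT0000519), miR-200b-3p (MIMAT0000233), miR-200c-3p (MIMAT0000657), miR-141-3p (MIMAT0000153), miR-429-3p (MIMAT0001537), miR-182-5p (MIMAT0000211), miR-183-5p (MIMAT0000212) and miR-96-5p (MIMAT0000541). Their counts were found by identifier, and the group was chosen with earlier results of these data known. Over all libraries 788 miRNAs had at least 1 read, and 7 of the 8 were among them. Serum came from healthy male and female mice of the strain 129/SVj, aged 2 to 9 months, that were sedated with tribromoethanol for blood collection and otherwise untreated as far as the labels say. The study compared 3 kits for making small RNA libraries, NEBNext Multiplex (New England Biolabs), TruSeq v2 (Illumina) and TailorMix v2 (Seqmatic), with 2 libraries each from serum of individual mice. The sera are numbered 1 and 2 in each kit, but whether a number stands for the same mouse in all kits is not stated, so that p-values measure only the spread between libraries of a kit, which may be technical, and a difference between kits cannot be told apart from a difference between mice where the mice differed.

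Both groups of miRNAs are best known from epithelia. The miR-200 family holds epithelial cells in their state by repressing the transcription factors ZEB1 and ZEB2, which silence the adhesion protein E-cadherin, and its members fall into a pair of groups by their seed, the stretch of bases near the 5′ end that pairs with target messenger RNAs. The miR-183 cluster is transcribed as a single precursor and is known for its high levels in sensory cells of the ear and the retina as well as in other epithelia. In serum, miRNAs are held in vesicles and protein complexes released by many tissues.

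The mature sequences are shown because members that differ at a few bases behaved differently between kits. They are the RefSeq entries of mouse build GRCm38.p6, in which all 8 names were found, written from 5′ to 3′ with the seed (bases 2 to 8) in capitals and grouped by seed.
miR-200b-3p: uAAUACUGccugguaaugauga
miR-200c-3p: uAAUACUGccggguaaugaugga
miR-429-3p: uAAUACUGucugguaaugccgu
miR-200a-3p: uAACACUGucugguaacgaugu
miR-141-3p: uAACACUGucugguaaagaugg
miR-182-5p: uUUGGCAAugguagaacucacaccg
miR-96-5p: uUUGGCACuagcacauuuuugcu
miR-183-5p: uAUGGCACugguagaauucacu

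The 8 sequences carried 5 seeds. miR-200b-3p, miR-200c-3p and miR-429-3p shared one, and miR-200a-3p and miR-141-3p another. The 3 miRNAs of the miR-183 cluster each had a seed of their own. Counting positions from 1 at the 5′ end, miR-200a-3p and miR-141-3p differed at 2 of 22 bases (C17A and U22G, miR-200a-3p first), both outside the seed. miR-200b-3p and miR-200c-3p differed at 2 of their first 22 bases (U11G and A22G), and miR-200c-3p had 1 base more. miR-200b-3p and miR-429-3p differed at 4 bases (C9U, A19C, U20C and A22U). miR-182-5p was the longest with 25 bases and the richest in G and C (48.0%), whereas the other members had 22 or 23 bases and between 36.4% and 43.5% G and C. All 8 began with U.

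The genes lie in 3 loci of GRCm38, all on the minus strand. Mir200b, Mir200a and Mir429 lie on chromosome 4 within 1846 bases (156053905 to 156055750), in introns of the protein-coding gene Ttll10 on the same strand (GENCODE release M21), and Mir429 also falls in an exon of the non-coding transcript Gm13648. Mir200c and Mir141 lie on chromosome 6 within 477 bases (124717914 to 124718390), within an intron of the non-coding antisense gene Gm15884, where Mir141 also overlaps an exon of the unclassified gene Gm29008 in part, and the nearest protein-coding gene, Phb2, is 964 bases from Mir141. Mir183, Mir96 and Mir182 lie on chromosome 6 within 3820 bases (30165918 to 30169737) and outside any protein-coding gene, with Nrf1, the nearest, 12460 bases from Mir182. Seed and locus thus cut across each other: the seed partner of miR-200a-3p, miR-141-3p, is encoded on another chromosome.

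Read counts were as the authors deposited them, without normalization, and levels are given as RPM, the reads per 1000000 miRNA reads of the library. The libraries held between 165139 and 351758 miRNA reads, with 367 to 540 miRNAs listed. A miRNA without a listed count was taken as 0, and 3 counts, the most that a count of 0 allows, correspond to 8.53 to 18.2 RPM. Intervals and this limit cover counting error only, since PCR copies of a molecule could not be recognised.

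Together the 8 miRNAs were scarce in serum and made up different shares of the miRNA reads with each kit. NEBNext replicates 1 and 2 held 1109 and 864 of their reads, the corresponding TruSeq libraries 630 and 491, and those made with TailorMix 144 and 134. Out of all miRNA reads, NEBNext gave 0.508% ± 0.0212, TruSeq 0.177% ± 0.00356 and TailorMix 0.0712% ± 0.00451 (SD, n = 2 each), and the kits did not overlap. The order of the kits depended on the denominator. Relative to all reads annotated as miRNA or as another small RNA such as tRNA, the share was highest in the TruSeq libraries (0.00542% and 0.00521%), followed by NEBNext (0.00422% and 0.00509%) and TailorMix (0.00280% and 0.00253%).

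The miRNA that led the group was a different one with each kit. With NEBNext, miR-200a-3p took 39.8% ± 2.33 of the reads of the 8 miRNAs and miR-200b-3p 27.8% ± 1.06. With TruSeq, miR-182-5p alone took 63.7% ± 5.87. With TailorMix, miR-200c-3p took 51.2% ± 4.64, a miRNA that had 2 reads in both TruSeq libraries together. The miR-200 family accounted for 93.2% ± 0.60 of these reads with NEBNext and 93.5% ± 0.330 with TailorMix, but for 34.0% ± 6.90 with TruSeq (SD, n = 2 each).

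**Figure D1:**
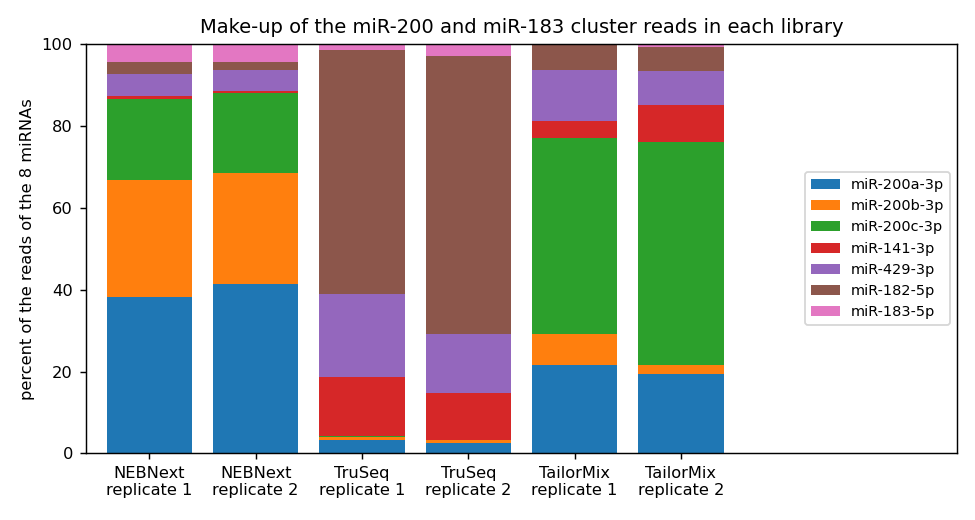
Stacked bars give, for each of the 6 libraries, the percent of the reads of the 8 miRNAs that each miRNA contributed. miR-96-5p has no bar because it had no reads, and miR-182-5p fills most of both TruSeq bars, miR-200c-3p about as much of both TailorMix bars as all other members together.

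Differences between kits were tested with edgeR's quasi-likelihood test across the 360 miRNAs that reached 4 counts in 2 or more libraries, and a miRNA was called at a Benjamini-Hochberg adjusted p under 0.05. Of the 8 miRNAs, 7 passed this filter and miR-96-5p did not. Between TruSeq and NEBNext all 7 tested were called, 3 higher and 4 lower with TruSeq. Of all miRNAs tested 68.6% were called in this contrast, 26.1% higher and 42.5% lower. Between TailorMix and NEBNext 5 were called, all 5 lower with TailorMix, beside 77.5% of all miRNAs, 39.2% higher and 38.3% lower. Between TailorMix and TruSeq 6 were called, 2 higher and 4 lower with TailorMix, beside 70.6% of all miRNAs, 41.7% higher and 28.9% lower. Most miRNAs differed between kits, and these counts are to be read against that background. The 3 contrasts share libraries and are not independent of each other.

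The median absolute log2 fold change of the 7 tested was 4.15 between TruSeq and NEBNext, 1.19 between TailorMix and NEBNext and 2.74 between TailorMix and TruSeq, beside 2.21, 2.18 and 2.37 over all 360 miRNAs. These values rest on TMM scaling, which takes most miRNAs as unchanged. Under it the median log2 fold change of all miRNAs was -0.52 from NEBNext to TruSeq, -0.24 from NEBNext to TailorMix and 0.50 from TruSeq to TailorMix. Scaled to the total of miRNA reads alone, these medians were -1.48, -0.88 and 0.91, and the part of all calls that were higher changed from 38.1% to 24.2%, from 50.5% to 38.6% and from 59.1% to 66.3%, with 6, 6 and 7 of the 7 tested members called in place of 7, 5 and 6.

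**Figure D2:**
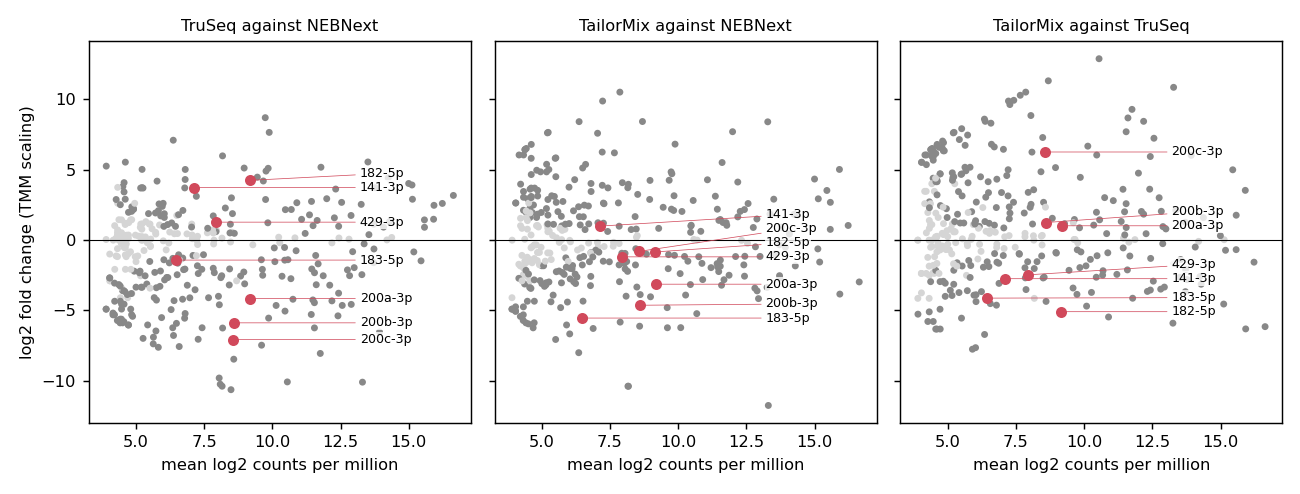
Each panel plots the log2 fold change of all 360 tested miRNAs under TMM scaling against their mean log2 CPM (counts scaled by library size) for 1 of the 3 contrasts, with called miRNAs in dark grey, others in light grey and the 7 tested members in red with their names. The red points lie within the spread of the grey points in all panels, with miR-200c-3p (lowest) and miR-182-5p (highest) as the outermost of them between TruSeq and NEBNext.

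Among the miRNAs with the seed AAUACUG, miR-200b-3p and miR-200c-3p fell to a few counts or none with TruSeq, whereas miR-429-3p kept 127 and 70. miR-200b-3p, one of the ZEB-repressing members of the chromosome 4 locus, was counted 317 and 234 times in the NEBNext pair, 4 and 3 times in the TruSeq pair and 11 and 3 times in the TailorMix pair. In RPM it stood at 1410 and 1417, 11.4 and 10.6, and 56.9 and 15.2. The NEBNext libraries were far above all others, whereas TailorMix replicate 2 (95% Wilson interval 5.18 to 44.8) was not apart from TruSeq replicates 1 (4.42 to 29.2) and 2 (3.62 to 31.3). Its log2 fold change was -5.88 from NEBNext to TruSeq (standard error, SE, 0.33, adjusted p = 2.35e-17) and -4.63 from NEBNext to TailorMix (SE 0.29, adjusted p = 8.71e-16), the latter being -5.84 without TailorMix replicate 1. From TruSeq to TailorMix it was 1.25 with a SE of 0.68 and an adjusted p of 0.0964, and this value rested on a single library, being 0.044 without TailorMix replicate 1 and 1.81 without TailorMix replicate 2, where it was called (adjusted p = 0.0174), as it was when scaled to the total of miRNA reads (1.65, adjusted p = 0.0161).

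miR-200c-3p, whose gene is the neighbour of Mir141 on chromosome 6, was counted 220 and 168 times in the NEBNext pair, 69 and 73 times in the TailorMix pair and 2 and 0 times in the TruSeq pair. Its level was 978 and 1017 RPM with NEBNext, 357 and 371 with TailorMix, and 5.69 with TruSeq replicate 1, while the absence from TruSeq replicate 2 allows up to 10.6. Both pairs of libraries were close to each other and the kits did not overlap. By pooled reads, its share was 315 times higher with NEBNext than with TruSeq (95% exact conditional interval 86.7 to 2613) and 115 times higher with TailorMix than with TruSeq (31.3 to 961). These ratios rest on the total of miRNA reads. edgeR tested the same 2 differences under TMM scaling and called both (adjusted p = 9.88e-17 and 1.61e-13). The fitted fold changes are not given since they depend on how a count near 0 is treated. From NEBNext to TailorMix the log2 fold change was -0.80 (SE 0.19, adjusted p = 3.42e-04).

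miR-429-3p, the third miRNA with this seed and a neighbour of Mir200b and Mir200a, was counted 60 and 44 times in the NEBNext pair, 127 and 70 times in the TruSeq pair and 18 and 11 times in the TailorMix pair. Its level was 267 and 266 RPM under NEBNext, compared with 361 and 248 under TruSeq and 93.0 and 55.9 under TailorMix. By this measure the TruSeq libraries lay on both sides of the NEBNext libraries, and the TailorMix libraries lay below all others. With TMM scaling the log2 fold change was 1.28 from NEBNext to TruSeq (SE 0.23, adjusted p = 1.29e-05), but with the total of miRNA reads as the scale it was 0.21 (adjusted p = 0.387). The log2 fold change to TailorMix was -1.19 from NEBNext (SE 0.34, adjusted p = 0.00249) and -2.47 from TruSeq (SE 0.30, adjusted p = 1.00e-08).

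**Figure D3:**
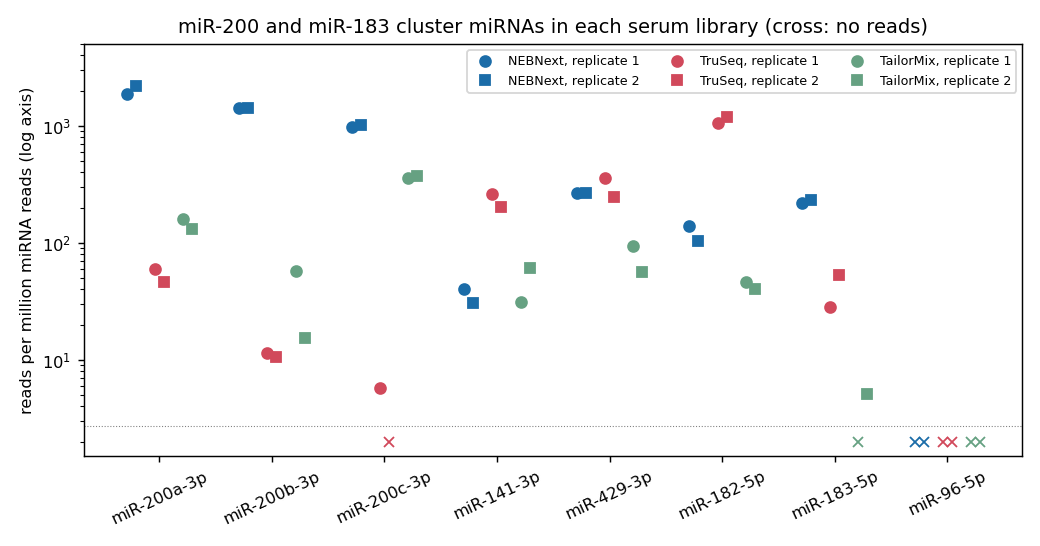
The level of each of the 8 miRNAs is plotted on a log axis as RPM, with the kit given by colour, the replicate by the shape of the point and a cross under the dotted line for a library without reads. miR-200a-3p, miR-200b-3p and miR-200c-3p have their highest points with NEBNext, and miR-141-3p and miR-182-5p with TruSeq.

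The pair with the seed AACACUG moved in opposite directions between NEBNext and TruSeq. miR-200a-3p was counted 423 and 358 times in the NEBNext pair, 21 and 13 times in the TruSeq pair and 31 and 26 times in the TailorMix pair, which is 1881 and 2168, 59.7 and 46.1, and 160 and 132 RPM, respectively. By count its rank among all miRNAs was 73 and 70 under NEBNext, 132 and 140 under TruSeq, and 128 and 137 under TailorMix. The 3 kits did not overlap in RPM, but the Wilson interval of TruSeq replicate 1 (39.0 to 91.3) narrowly overlapped that of TailorMix replicate 2 (90.1 to 193). No other intervals of different kits overlapped. The log2 fold change of miR-200a-3p was -4.15 from NEBNext to TruSeq (SE 0.22, adjusted p = 8.93e-18) and -3.13 from NEBNext to TailorMix (SE 0.21, adjusted p = 1.88e-15). From TruSeq to TailorMix it was 1.02 (SE 0.33, adjusted p = 0.00606), a call that was lost without TruSeq replicate 2 (adjusted p = 0.0538), without TailorMix replicate 1 (adjusted p = 0.0629) and without a filter on low counts (adjusted p = 0.122).

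miR-141-3p, which has the same seed, reached only 9 and 5 counts under NEBNext and 6 and 12 under TailorMix, but 91 and 57 under TruSeq. Its level was 40.0 and 30.3 RPM with NEBNext, 31.0 and 60.9 with TailorMix and 259 and 202 with TruSeq. The TruSeq libraries stood above all others, and NEBNext and TailorMix overlapped. Its log2 fold change from NEBNext to TruSeq reached 3.74 (SE 0.36, adjusted p = 3.99e-11) and that from TruSeq to TailorMix -2.74 (SE 0.35, adjusted p = 2.72e-08), the latter being -3.40 without TailorMix replicate 2. Scaled to the total of miRNA reads, the changes with all libraries were 2.68 from NEBNext to TruSeq and -2.32 from TruSeq to TailorMix. Between NEBNext and TailorMix the value under TMM scaling was 1.00 with a SE of 0.56 and was not called (adjusted p = 0.104), and without TailorMix replicate 2 it was 0.24. No kit therefore showed both miRNAs of the pair at their highest level.

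**Figure D4:**
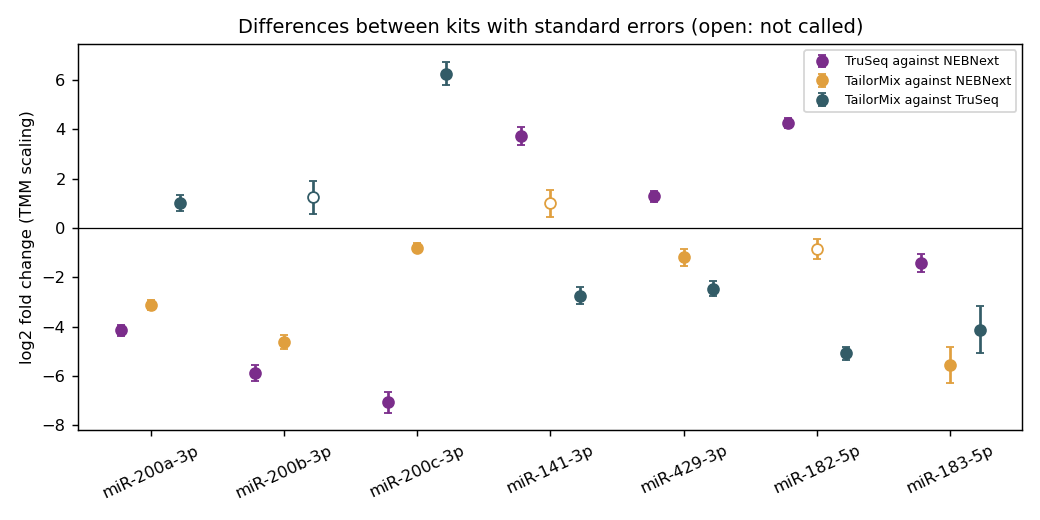
Points give the log2 fold change of the 7 tested miRNAs under TMM scaling in each of the 3 contrasts, with bars of 1 standard error (SE), and open points mark differences that were not called. Between TruSeq and NEBNext miR-200a-3p, miR-200b-3p and miR-200c-3p lie below 0 and miR-141-3p and miR-182-5p above it. The fitted values of miR-200c-3p against TruSeq and of miR-183-5p against TailorMix rest on 2 counts and 1 count in the lower kit.

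In the miR-183 cluster, miR-182-5p led with TruSeq, miR-183-5p with NEBNext, and miR-96-5p was not found. miR-182-5p had 375 and 333 counts with TruSeq, 31 and 17 with NEBNext and 9 and 8 with TailorMix. This was 1066 and 1181 RPM with TruSeq, 138 and 103 with NEBNext and 46.5 and 40.6 with TailorMix. The kits did not overlap in RPM, and the TruSeq libraries were apart by the widest margin. The Wilson interval of NEBNext replicate 2 (64.3 to 165) overlapped those of TailorMix replicates 1 (24.5 to 88.4) and 2 (20.6 to 80.2). That of NEBNext replicate 1 (97.1 to 196) overlapped neither. With TMM scaling the log2 fold change of miR-182-5p was 4.25 from NEBNext to TruSeq (SE 0.21, adjusted p = 4.53e-19), against 3.19 when scaled to the total of miRNA reads. From TruSeq to TailorMix it was -5.09 (SE 0.25, adjusted p = 1.01e-18), against -4.67 on the total of miRNA reads. From NEBNext to TailorMix it was -0.84 with a SE of 0.40 and was not called (adjusted p = 0.0560). Scaled to the total of miRNA reads this difference was -1.48 and was called (adjusted p = 3.94e-04), as it was with a minimum of 10 counts (adjusted p = 0.0368) and without NEBNext replicate 2 (adjusted p = 0.0157).

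miR-183-5p, processed from the same precursor transcript, was counted 49 and 38 times in the NEBNext pair, 10 and 15 times in the TruSeq pair and 0 and 1 times in the TailorMix pair. Its level was 218 and 230 RPM under NEBNext, 28.4 and 53.2 under TruSeq and 5.08 with TailorMix replicate 2. In TailorMix replicate 1, where it was absent, the limit of 3 counts is 15.5. The kits did not overlap in RPM, but the 95% Wilson interval of TruSeq replicate 1 (15.4 to 52.3) overlapped that of TailorMix replicate 2 (0.90 to 28.8). The log2 fold change from NEBNext to TruSeq was -1.42 (SE 0.37, adjusted p = 0.00112), a call that DESeq2 did not make (adjusted p = 0.129) and that was lost without TruSeq replicate 1 (adjusted p = 0.0521). Scaled to the total of miRNA reads, as RPM are, the log2 fold change from NEBNext to TruSeq was -2.48 (edgeR, adjusted p = 5.09e-11). By pooled reads the share of miR-183-5p was 87.1 times higher with NEBNext than with TailorMix (95% exact conditional interval 15.2 to 3479) and 15.4 times higher with TruSeq than with TailorMix (2.52 to 632). These ratios, too, rest on the total of miRNA reads, whereas edgeR called both differences under TMM scaling (adjusted p = 3.71e-08 and 2.55e-04).

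miR-96-5p, the cluster member known for its role in hearing, was listed in 0 of 6 libraries. A count of 0 allows up to 8.53 and 10.6 RPM in the TruSeq libraries, 13.3 and 18.2 with NEBNext and 15.5 and 15.2 with TailorMix. It was thus not detected at this depth, and its level may lie anywhere below or near these approximate limits.

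A ratio of 2 miRNAs within a library does not depend on how libraries are scaled. The ratios planned between neighbours in a locus could not be tested, since in each pair 1 miRNA had fewer than 4 counts in at least 1 library. As values, miR-429-3p had 0.189 and 0.188 times the reads of its neighbour miR-200b-3p under NEBNext, 31.8 and 23.3 times under TruSeq and 1.64 and 3.67 times under TailorMix. miR-141-3p had 0.0409 and 0.0298 times the reads of its neighbour miR-200c-3p with NEBNext, 0.0870 and 0.164 times with TailorMix, and 91 reads against 2 and 57 against 0 with TruSeq. miR-183-5p had 1.58 and 2.24 times the reads of miR-182-5p with NEBNext but 0.0267 and 0.0450 times with TruSeq. In these 3 pairs the more abundant neighbour under NEBNext was the less abundant under TruSeq. The neighbours miR-200a-3p and miR-200b-3p did not reverse: miR-200a-3p had 1.33 and 1.53 times the reads of miR-200b-3p under NEBNext, 5.25 and 4.33 times under TruSeq and 2.82 and 8.67 times under TailorMix.

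The 4 miRNAs with at least 4 counts in every library, miR-200a-3p, miR-141-3p, miR-429-3p and miR-182-5p, formed 6 pairs, which were tested after the counts had been seen. miR-200a-3p had 47.0 and 71.6 times the reads of its seed partner miR-141-3p with NEBNext, 5.17 and 2.17 times with TailorMix and 0.231 and 0.228 times with TruSeq. The mean ratios of NEBNext and TruSeq differed 253-fold. An exact permutation test over the 15 groupings of 6 libraries into 3 pairs gave p = 0.0667, the smallest possible, so that this design cannot reach 0.05 (two-sided, adjusted p = 0.10 over the 6 ratios). miR-200a-3p over miR-182-5p was 13.6 and 21.1 with NEBNext, 3.44 and 3.25 with TailorMix and 0.0560 and 0.0390 with TruSeq, with the same p. miR-200a-3p over miR-429-3p, from the same locus, was 7.05 and 8.14, 1.72 and 2.36, and 0.165 and 0.186 in the same order, again with p = 0.0667 in the exact test. The remaining ratios differed less, 8.39-fold between the outermost kits for miR-429-3p over miR-182-5p (exact permutation test, two-sided, p = 0.133), 5.85-fold for miR-141-3p over miR-429-3p (p = 0.2) and 4.91-fold for miR-141-3p over miR-182-5p (p = 0.0667).

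**Figure D5:**
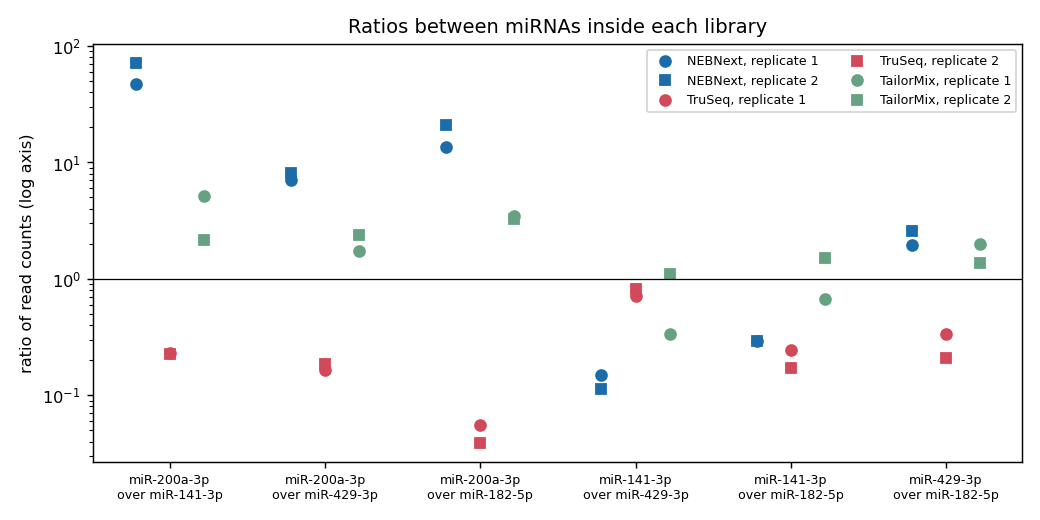
The ratio of read counts inside each library is plotted on a log axis for the 6 pairs, with kits by colour and replicates by shape. The 3 ratios with miR-200a-3p as the numerator lie above 1 in all NEBNext and TailorMix libraries and below 1 in both TruSeq libraries.

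Over the 17 combinations of a miRNA and a kit in which both libraries had at least 4 counts, the higher library exceeded the lower by 1.00 to 1.97 times. The widest of these was miR-141-3p with TailorMix, at 6 and 12 counts. miR-200b-3p with TailorMix, at 11 and 3 counts, lay outside this set and differed 3.73-fold in RPM.

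Patterns over the 6 libraries were compared as log2 CPM centred on each miRNA's mean, as a description. Library sizes were scaled by TMM, and about 2 counts were added to each value before taking logs. Among the tested members the closest were miR-200a-3p and miR-200b-3p, neighbours with different seeds, at a Euclidean distance of 1.83 (Pearson r = 0.98 over 6 libraries). The seed partners miR-200a-3p and miR-141-3p were 7.46 apart (r = -0.81). Farthest apart were miR-200c-3p and miR-182-5p, at 11.5 (r = -0.96). All distances and correlations of miR-200c-3p, counted 2 and 0 times in the TruSeq libraries, depend on the counts added before taking logs. So do those of miR-200b-3p, counted 4 and 3 times with TruSeq and 11 and 3 times with TailorMix. Those of miR-183-5p, counted 0 and 1 times with TailorMix, do as well. The closest of 353 tested miRNAs outside the group was MIMAT0000126 for miR-182-5p (distance 0.47), MIMAT0003783 for miR-200a-3p (0.63) and MIMAT0004750 for miR-200c-3p (0.72). Each was nearer than any other tested member. With 353 candidates against a few members a nearer one is likely in any case, so nothing about the group follows from it. Each kit contributed 2 libraries to these distances.

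The counting could limit how far the seed partners are told apart. Reads down to 15 bases were kept and mapped without mismatches, and miR-200a-3p and miR-141-3p share their first 16 bases, so that a read of 15 or 16 bases from the 5′ end would match both. They were the only pair of 28 with a shared stretch of that length, and none of the 8 shared 15 bases with another mature miRNA of the RefSeq table. How reads with several positions were assigned is not given in the sources used here, and their part in the result was not tested.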

How the data were processed

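Small RNA was sequenced from serum of healthy mice in 6 libraries, 2 for each kit. Per the study's methods Cutadapt 1.8.1 was used by the authors to remove adaptors; reads of at least 15 bases were aligned by Bowtie 1.1.2 with no mismatch allowed, and their positions were matched to annotated small RNAs (miRBase release 20, GRCm38); the deposited values are raw counts per miRNA and library. A library's miRNA reads were the denominator of shares, and reads of its list of other small RNAs were added for annotated reads. Counts were tested with edgeR 4.0.16 (R 4.3.3; glmQLFit, glmQLFTest, TMM, Benjamini-Hochberg adjustment over 360 miRNAs reaching 4 counts in 2 or more libraries), with all 6 libraries and kit as the only term. The standard error is the log2 fold change over the root of F. DESeq2 1.42.0 served as an alternative. Ratios of pooled shares have exact conditional binomial intervals, shares of single libraries Wilson intervals at 95% (scipy 1.17.1). The edgeR comparison of TruSeq and NEBNext was tested on simulated counts in which most miRNAs were unchanged, whereas most were called in these data. The 8 miRNAs, the lists and the rules were chosen with earlier results of these data known. All 8 are named, with the nearest miRNA by pattern of each locus's leading member; the rule asked for the nearest 3, but identifiers without a name are kept few. Names were paired with identifiers only for the 8, so the 8 opposite arms and 26 marker miRNAs of 6 lists (other epithelial, mesenchymal, red cell, white cell, liver and endothelial) were not analysed here.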

Additional observations from a re-analysis of the deposited data

How the results depend on the processing

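No log2 fold change of the 7 tested miRNAs changed direction under the alternatives run (RLE or total-read scaling, no filter or a minimum of 10 counts, DESeq2, the replicate block, the 4 libraries of a contrast, or each library left out, where the remaining library of that kit is assumed to vary like the others). Of the recomputed log2 fold changes of the 7 tested miRNAs, 262 kept their side of the threshold, 6 lost a call and 5 gained one. The numbers called among all miRNAs stayed within 1.5 times, and were 175, 196 and 204 with DESeq2. With the replicate block they were 232, 250 and 235, with 7, 5 and 6 of the members called, as without it, and the block changed no call of a member. The replicate numbers were not taken as pairs, since the sources do not say whether they stand for the same mice. The replicate 1 minus 2 differences of 360 miRNAs correlated at 0.028, 0.043 and -0.037 between kits. Over 68 miRNAs with higher counts the correlations were 0.163, -0.033 and 0.052. Counting noise lowers such correlations, so they cannot decide whether the numbers are pairs. The summed share moved with the denominator, and NEBNext came below TruSeq for annotated reads: to 0.00466% with NEBNext, 0.00532% with TruSeq and 0.00266% with TailorMix of all annotated reads, and to 0.557%, 0.219% and 0.0845% without the most abundant miRNA of each library. The alternatives planned for the ratios of neighbours were not run, as no such ratio met the minimum. Depth limits miR-96-5p, miR-200c-3p with TruSeq and miR-183-5p with TailorMix, where 0 to 2 counts carry the value.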
